A study of Mus musculus with 8 samples.

Results

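Brain pericytes are the mural cells that sit on the outside of capillaries, embedded in the vessel's basement membrane, and they are recruited and kept there by PDGF-B from endothelial cells acting on PDGF receptor beta. In the brain they carry a recognisable set of transcripts for surface peptidases and proteoglycans, a potassium channel that couples energy state to membrane potential, regulators of G protein signalling, the nitric oxide receptor guanylyl cyclase and a few transcription factors. The gene set examined here holds 32 such brain pericyte identity genes, listed by name but chosen with earlier results of these data known. A gene was measured where the array had a probe set annotated to it alone, and the brightest such probe set, averaged across the 8 arrays, stood for the gene. By that rule 30 of the 32 genes were found among 18194 named genes, while Slc38a11 and Ednra were not analysed here. Of the 30, 29 exceeded a log2 value of 4 on at least 4 arrays and were tested, and Cox4i2 did not.

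The arrays measured RNA of microvessel fragments that had been captured, with the pericytes attached to them, from dissociated newborn mouse brains (postnatal day 1) on magnetic beads carrying an antibody to the endothelial protein PECAM. There were 4 control brains, labelled wild type, and 4 mutant brains, labelled PDGFRb (D849V), a knock-in allele whose receptor signals without ligand; all were on the 129S/J mixed background. The labels name no litter, zygosity or preparation day, and the allele acts in every cell that uses the Pdgfrb promoter, not in pericytes alone. The comparison asks what happens to the pericyte transcript programme when its own receptor is always on. Values are log2 units of the authors' GCRMA normalization, so that a difference of 1 is a 2-fold change, and values of different probe sets cannot be ranked as amounts of RNA. In such bulk material fewer pericytes and less of a transcript per pericyte cannot be told apart.

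Transcripts of pericytes were present in the material: the bright pericyte genes Rgs5, Vtn, Kcnj8, Abcc9 and Zic1 read between 11.05 and 14.83 on all 8 arrays. Of these, Zic1 is also a gene of the meninges. Other members were dim, with Des at 4.97 to 5.87, Cygb at 4.91 to 6.32 and Ndufa4l2 at 3.94 to 5.56. The cytochrome oxidase isoform gene Cox4i2 read 2.18, the floor, on every array, and the aminopeptidase gene Anpep (CD13) read 3.51 to 4.55, around the filter level. Pearson correlations over the brighter probe sets ran from 0.967 to 0.988 between arrays of a group and from 0.937 to 0.973 between groups. Microglia and macrophage genes were higher on the mutant arrays, with 11 of 14 tested called higher, against 2.66% of all tested genes. Their log2 summed level over 16 measured genes was 13.58 to 14.50 in mutants and 11.80 to 12.54 in controls. Of the defining markers Itgam lay at the floor everywhere. The summed level of 15 endothelial genes ran from 15.65 to 16.03 in mutants and from 16.03 to 16.18 in controls, and 14 of the 15 had a negative difference. A positive difference was found in 1 of the 15, against 30.9% of all tested genes. The median difference was -0.24 for the endothelial genes and -0.11 for all tested genes. Whether either shift takes part in the values of the pericyte genes was not tested. Genes of cells outside the vessel wall were bright as well. The summed level of 11 astrocyte and radial glia genes ran from 16.09 to 16.53 in mutants and from 16.17 to 16.37 in controls. That of 7 choroid plexus and ependyma genes was at least 16.32 in mutants and ran from 16.20 to 16.56 in controls. How pure the captured microvessels were was not tested. Y-linked genes averaged 8.02 to 8.22 on mutant arrays 1, 3 and 4 and control arrays 2 and 3. On mutant array 2 and control arrays 1 and 4 they averaged 2.18 to 2.22, at the floor.

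A second difference between arrays touches several of these genes and is given first. Bacterial transcripts that are added to RNA before labelling, thr and dap, are read by separate probe sets for their 5′ and 3′ ends, and the gap between the ends shows how far labelling reached along a transcript. For thr the 5′ minus 3′ difference was -1.93, -1.77 and -2.26 log2 units on mutant arrays 1 to 3 and -1.275 on control array 1. On mutant array 4 and control arrays 2 to 4 it was -4.605, -4.58, -4.20 and -3.85. The dap difference made the same division, from -2.06 to -1.27 on the first 4 arrays and from -3.27 to -3.14 on the other 4. The Actb probe sets for the mouse's own transcript did not divide the arrays, with a 5′ minus 3′ difference of -1.08 to -0.94. This division by spike-in signal crosses the genotypes unevenly, with 3 mutants and 1 control on one side and 1 mutant and 3 controls on the other. The labels give no batch, so the division is known only from the spike-ins, and values with the spike-in set as a block are given beside many of the results below.

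**Figure D1:**
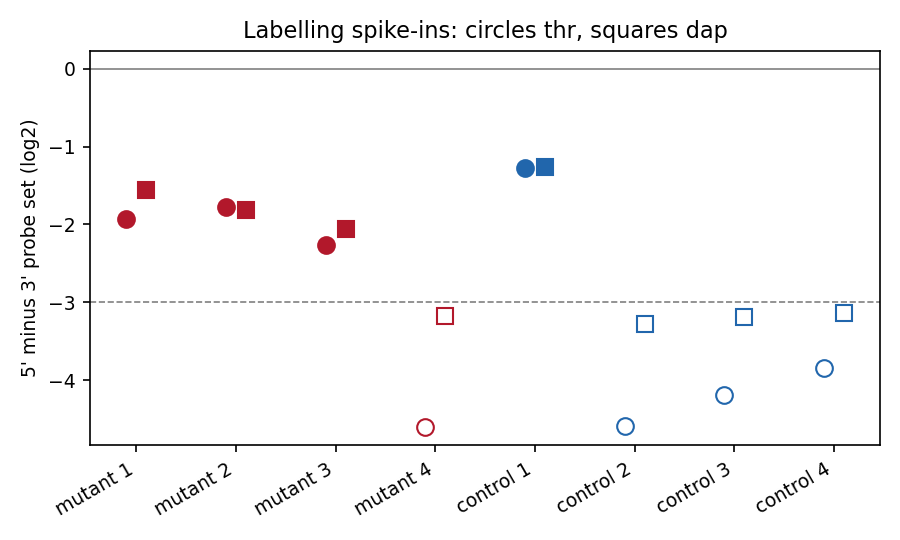
Difference between the 5′ and the 3′ probe set (log2) of the labelling spike-ins thr (circles) and dap (squares) on each of the 8 arrays; red is mutant, blue is control, and filled symbols mark the 4 arrays with the higher 5′ signal. Mutant arrays 1 to 3 and control array 1 lie above the dashed line at -3, and mutant array 4 and control arrays 2 to 4 lie below it.

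Most of the pericyte programme did not pass the test between mutant and control microvessels, and its members leaned towards higher values. Of the 29 tested genes 1, Higd1b, was higher in mutants (limma with Benjamini-Hochberg adjustment over all 11446 tested genes, threshold 0.05), against 2.66% of all tested genes, and none was lower, against 1.92%. At an unadjusted p under 0.05 there were 7 genes higher, against 5.37% of all genes, and 1 lower, against 15.3%. Positive differences were found in 22 of the 29, against 30.9% of all tested genes. The median difference of the 29 was 0.18 on the log2 scale where that of all tested genes was -0.11. This lean was not particular to pericyte genes. Astrocyte and radial glia genes were positive in 9 of 11 (median 0.15) and neuron genes in 8 of 12 (median 0.16). Shares were lower in other lists, as in fibroblast and meningeal genes (6 of 15) and choroid plexus and ependyma genes (1 of 7). The groups did not overlap for Higd1b, Atp13a5 and Ebf1, that is for 3 of the 29, while 14.5% of all tested genes showed no overlap. For 24 of the 29 the 95% interval of the difference on the brightest probe set stayed within 1 log2 unit of 0; the other 5, Mcam, Atp13a5, Cygb, Higd1b and Ndufa4l2, had wider or more distant intervals. In 9 of those 24 genes, among them S1pr3, Abcc9, Rgs5 and Pde5a, another tested probe set had an interval that reached beyond 1.

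**Figure D2:**
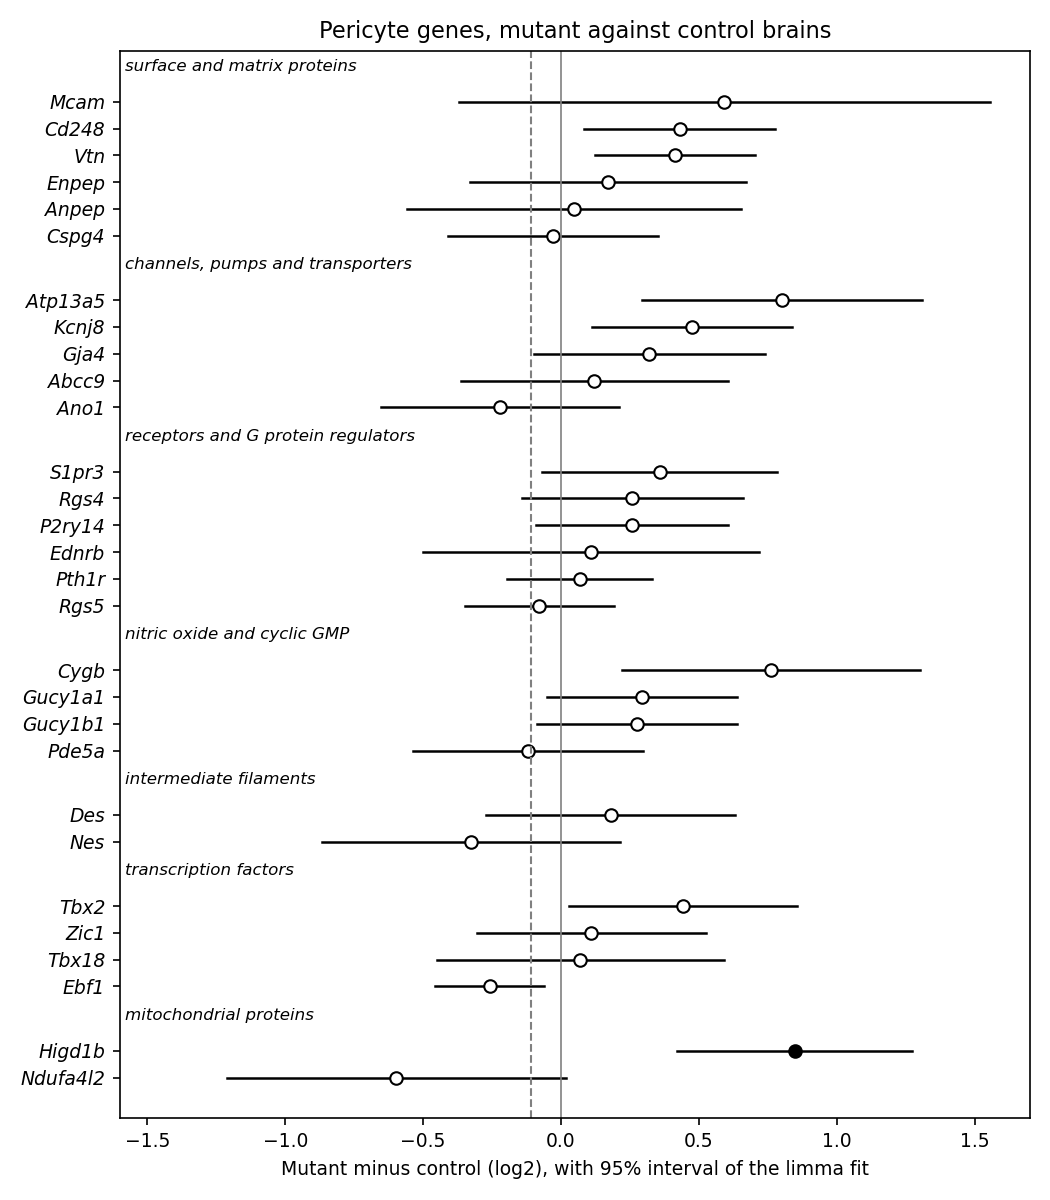
Mutant minus control difference (log2) of the 29 tested pericyte genes, grouped by what their products do; bars are 95% intervals of the limma fit with 4 arrays per group, the filled point is the gene that passed, and the dashed line is the median of all tested genes (-0.11). Most points lie to the right of 0, with Higd1b at 0.85 and Ndufa4l2 at -0.60 as the extremes.

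Many members had their highest or lowest value on the same array, and no share over all tested genes was counted beside these counts. On control array 2, 14 of the 29 genes had their highest control value, and on mutant array 1, 19 of the 29 had their lowest mutant value. On mutant array 2, 16 of the 29 had their highest mutant value. Taken as the median deviation of the 29 genes from their own means, mutant arrays 1 to 4 stood at -0.07, 0.28, 0.13 and 0.16 and control arrays 1 to 4 at 0.01, 0.09, -0.18 and -0.22. The same median over all tested genes was -0.12, -0.02, -0.02 and -0.005 on mutant arrays 1 to 4. On control arrays 1 to 4 it was 0.09, 0.02, 0.009 and 0.07. For the members the groups overlapped through mutant array 1, which lay below control arrays 1 and 2. Over all tested genes mutant array 1 was also the lowest and control array 1 the highest. This order of arrays is therefore not particular to the members.

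To show the regulatory sequence next to the genes whose values separated the groups best, the 250 bases before the transcription start were taken from the RefSeq promoter table (GRCm38.p6), which held 26 of the 32 genes and not Higd1b. Atp13a5 and Ebf1 are shown because their groups did not overlap, Vtn as an example of a gene whose groups did not overlap on its second probe set, as was also so for Gucy1a1, which is not shown, and Nes because it passed with the spike-in set as a block. Each runs 5′ to 3′ on the strand of the gene, and capitals mark a match to one of 3 motifs searched on both strands. The windows are chr16:29378733-29378982 on the minus strand for Atp13a5, chr11:78498870-78499119 on the plus strand for Vtn, chr3:87970843-87971092 on the plus strand for Nes and chr11:44617850-44618099 on the plus strand for Ebf1, the latter 1 of 2 windows of that gene.
Atp13a5: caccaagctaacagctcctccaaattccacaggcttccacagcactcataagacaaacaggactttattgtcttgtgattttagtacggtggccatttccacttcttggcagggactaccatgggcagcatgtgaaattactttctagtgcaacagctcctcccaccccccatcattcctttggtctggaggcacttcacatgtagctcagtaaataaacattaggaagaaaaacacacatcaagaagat
Vtn: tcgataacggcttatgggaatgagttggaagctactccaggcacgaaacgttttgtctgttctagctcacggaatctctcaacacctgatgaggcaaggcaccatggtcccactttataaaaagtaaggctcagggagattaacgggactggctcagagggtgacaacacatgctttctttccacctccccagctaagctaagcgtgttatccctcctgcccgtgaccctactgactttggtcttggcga
Nes: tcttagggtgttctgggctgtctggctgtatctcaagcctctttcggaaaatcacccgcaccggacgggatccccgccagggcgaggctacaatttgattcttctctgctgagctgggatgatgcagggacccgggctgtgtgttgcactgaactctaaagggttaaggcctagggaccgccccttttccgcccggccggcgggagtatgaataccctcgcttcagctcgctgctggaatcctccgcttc
Ebf1: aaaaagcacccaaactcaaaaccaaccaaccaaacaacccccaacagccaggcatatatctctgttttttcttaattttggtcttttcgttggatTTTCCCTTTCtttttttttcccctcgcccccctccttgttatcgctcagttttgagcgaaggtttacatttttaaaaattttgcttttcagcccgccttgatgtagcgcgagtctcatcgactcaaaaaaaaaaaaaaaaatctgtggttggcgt

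The motifs were the core of the interferon response element (GAAA, 2 bases, GAAA), the palindrome bound by EBF factors (TCCC, 2 bases, GGGA) and a T-box half-site (GGTGTGA), since 15 of 16 tested interferon-induced genes were higher in mutants (median difference 5.62) and Ebf1, Tbx2 and Tbx18 are members. The interferon core was found in 1 of 33 member windows, the Ebf1 window above, at bases -155 to -146 from the start, and in 2.98% of all 32851 windows searched. The windows of 1 chromosome were left out of the search and of every share given here. The EBF palindrome was in none of the 33 and in 0.779% of all windows, and the T-box half-site was in 1, the other window of Ebf1, and in 3.33% of all. These member matches lie in different windows, so none overlaps another. A match is a description of these letters and not of binding.

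Among the mitochondrial proteins, Higd1b, a membrane protein of the HIG1 family and one of the sharpest transcript markers of brain pericytes, was the gene that rose. It read 11.01, 10.72, 10.82 and 10.85 on mutant arrays 1 to 4 and 9.90, 10.58, 9.80 and 9.72 on control arrays 1 to 4. All mutants lay above all controls, with control array 2 the nearest. The means were 10.85 ± 0.12 and 10.00 ± 0.39 (SD, n = 4 each), a 1.80-fold difference of 0.85 (SE 0.186, limma adjusted p = 0.041). Within the arrays of higher 5′ spike-in signal the mutants exceeded the control by 0.95, and within those of lower signal the mutant exceeded the controls by 0.82; with the spike-in set as a block the difference was 0.88 (SE 0.226, limma adjusted p = 0.0872), against 2.19% of all genes called higher in that fit. Without control array 2 the difference was 1.04 (limma adjusted p = 0.00135), and without any single one of the other 7 arrays it was 0.76 to 0.89 and the call was lost (limma adjusted p from 0.0701 to 0.127). Taking the mean of the Y-linked genes as a covariate gave 0.78, and the call was lost as well (limma adjusted p = 0.0598).

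The remaining genes of that group did not pass. Ndufa4l2, a protein related to a subunit of cytochrome oxidase, is dim on the array and read 4.15, 3.94, 4.55 and 5.001 in mutants and 5.01, 5.56, 4.65 and 4.81 in controls. Its difference of -0.60 (limma adjusted p = 0.255, 95% interval -1.21 to 0.02) rested on mutant arrays 1 to 3, which lay below every control, and on the 4 arrays of lower 5′ signal it was -0.0029. With the block it was -0.40. Cox4i2 was at the floor on all arrays, so that no difference could be resolved.

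Ion channels and transporters held the next largest difference. Atp13a5, a P-type ATPase whose transcript is nearly specific to pericytes in the brain, read 10.31, 11.21, 11.06 and 10.48 on mutant arrays 1 to 4 and 10.26, 10.06, 9.77 and 9.77 on control arrays 1 to 4. The groups did not overlap, though mutant array 1 and control array 1 almost met. The difference was 0.80 (SE 0.221, limma adjusted p = 0.0893), and 0.89 with limma adjusted p = 0.0384 when arrays were centred on the median of the tested genes. A dimmer probe set of the same gene read 8.01, 8.71, 8.48 and 6.28 in mutants and 8.07, 6.43, 6.14 and 6.14 in controls, so that it split by spike-in signal and not by genotype. With the block the brighter probe set differed by 0.61 (limma adjusted p = 0.206) and the dimmer one by 0.19 (limma adjusted p over all probe sets 0.605).

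The ATP-sensitive potassium channel of pericytes is built from the pore protein Kir6.1, encoded by Kcnj8, and the sulfonylurea receptor SUR2, encoded by Abcc9, whose genes are neighbours on chromosome 6. Kcnj8 read 11.70, 11.77, 11.72 and 11.78 in mutants and 11.13, 11.77, 11.05 and 11.12 in controls. Control array 2 thus read like the mutants, and the other 3 controls lay below all mutants. The difference was 0.48 (SE 0.158, limma adjusted p = 0.143), and 0.64 without control array 2 (limma adjusted p = 0.00449). Leaving out any other single array gave no call for Kcnj8 (limma adjusted p from 0.189 to 0.327). Abcc9 read 11.63, 12.74, 12.38 and 12.39 in mutants against 12.13, 12.28, 12.14 and 12.11 in controls. Its difference was 0.12 (95% interval -0.36 to 0.61, limma adjusted p = 0.779), with the mutants on both sides of the controls. Its dimmer probe sets differed by 0.49 and 0.57 (limma adjusted p over all probe sets 0.324 and 0.455), and by 0.28 and 0.19 with the block. Gja4, a gap junction connexin, differed by 0.32 and the calcium-activated chloride channel Ano1 by -0.22, and neither passed (limma adjusted p = 0.357 and 0.532). With the block these became 0.10 and -0.09.

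The surface and matrix proteins were measured by 6 genes and none passed, 5 of them with a positive difference and a median of 0.29. Vtn, which encodes the adhesive glycoprotein vitronectin that pericytes secrete, read 12.95, 12.99, 13.21 and 13.00 in mutants and 12.53, 12.96, 12.55 and 12.45 in controls. Only control array 2 reached the mutant values. The difference was 0.41 (SE 0.127, limma adjusted p = 0.117), and 0.52 without control array 2 (limma adjusted p = 0.0335). No call came from leaving out any other single array (limma adjusted p from 0.142 to 0.294). The second probe set of Vtn read 10.90, 10.95, 11.32 and 10.80 in mutants against 10.31, 10.57, 10.39 and 10.21 in controls, with no overlap; mutants were 0.62 above controls (limma adjusted p of 0.053 over the whole set of probe sets). Cd248, the transmembrane glycoprotein endosialin, differed by 0.43 (SE 0.152, limma adjusted p = 0.164), with control array 2 at 9.02 and the other controls from 8.30 to 8.58 against 8.92 to 9.15 in mutants. Without control array 2 its difference was 0.57 (limma adjusted p = 0.0348). When any other single array was left out instead, Cd248 was not called (limma adjusted p from 0.188 to 0.351).

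Mcam (CD146), an adhesion molecule of pericytes and endothelial cells, had the largest spread of the 29. Its values were 10.08, 10.18, 10.37 and 8.73 on mutant arrays 1 to 4 and 10.17, 9.11, 8.86 and 8.83 on control arrays 1 to 4. They divided exactly as the spike-ins did, with control array 1 among the first 3 mutants and mutant array 4 just below the other controls. The difference of 0.59 between genotypes (SE 0.421, limma adjusted p = 0.453) was -0.09 with the block (SE 0.125), while the term for the spike-in set was 1.36 (SE 0.125, limma adjusted p = 0.00972). Of the 29 genes, Mcam and Nes passed for the spike-in term, against 1.28% of all tested genes. The division was first noticed in probe sets of members, Mcam among them, so the pass of Mcam is not independent of that choice. The proteoglycan NG2, encoded by Cspg4 and the classical antigen used to see pericytes, averaged 9.09 ± 0.26 on the mutant arrays (SD, n = 4) and 9.12 ± 0.25 on the control arrays (SD, n = 4). Its difference was -0.03 with a 95% interval of -0.41 to 0.35. The second probe set of Cspg4 differed by 0.34 (95% interval -0.04 to 0.72), and with the block the differences were 0.10 and 0.11. The glutamyl aminopeptidase Enpep differed by 0.17 and Anpep by 0.05, with limma adjusted p of 0.689 and 0.938.

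The intermediate filament proteins gave a result that depended on the spike-in division. Nes encodes nestin, which is made in neural progenitors, in forming endothelium and in young pericytes, so its signal need not come from pericytes alone. It read 9.24, 9.31, 9.42 and 8.60 on mutant arrays 1 to 4 and 10.05, 9.33, 9.24 and 9.27 on control arrays 1 to 4. Across all arrays the groups overlapped and the difference was -0.33 (SE 0.236, limma adjusted p = 0.461). Among the arrays of higher 5′ signal the 3 mutants lay below the control by 0.72 in the mean, and among those of lower signal the mutant lay below the 3 controls by 0.68. With the spike-in set as a block Nes fell by 0.70 (SE 0.084, limma adjusted p = 0.00452), the only member called in that fit, where 1.54% of all genes were called lower. The second probe set of Nes fell by 0.63 with the block (SE 0.086, limma adjusted p over all probe sets 0.0109), and the third, dimmer one differed by -0.78 (limma adjusted p over all probe sets 0.146). This block was chosen after the data had been seen, and within each set 1 genotype is represented by a single array. In the same fit 4 of 15 endothelial genes were lower and all 15 had a negative difference. Their median was -0.38, against -0.11 for all tested genes. None of 11 astrocyte and radial glia genes passed there, and the median of those 11 was 0.24. The part of either list in the Nes values was not tested. Desmin, encoded by Des, is dim here, and its difference of 0.18 did not pass (limma adjusted p = 0.633).

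**Figure D3:**
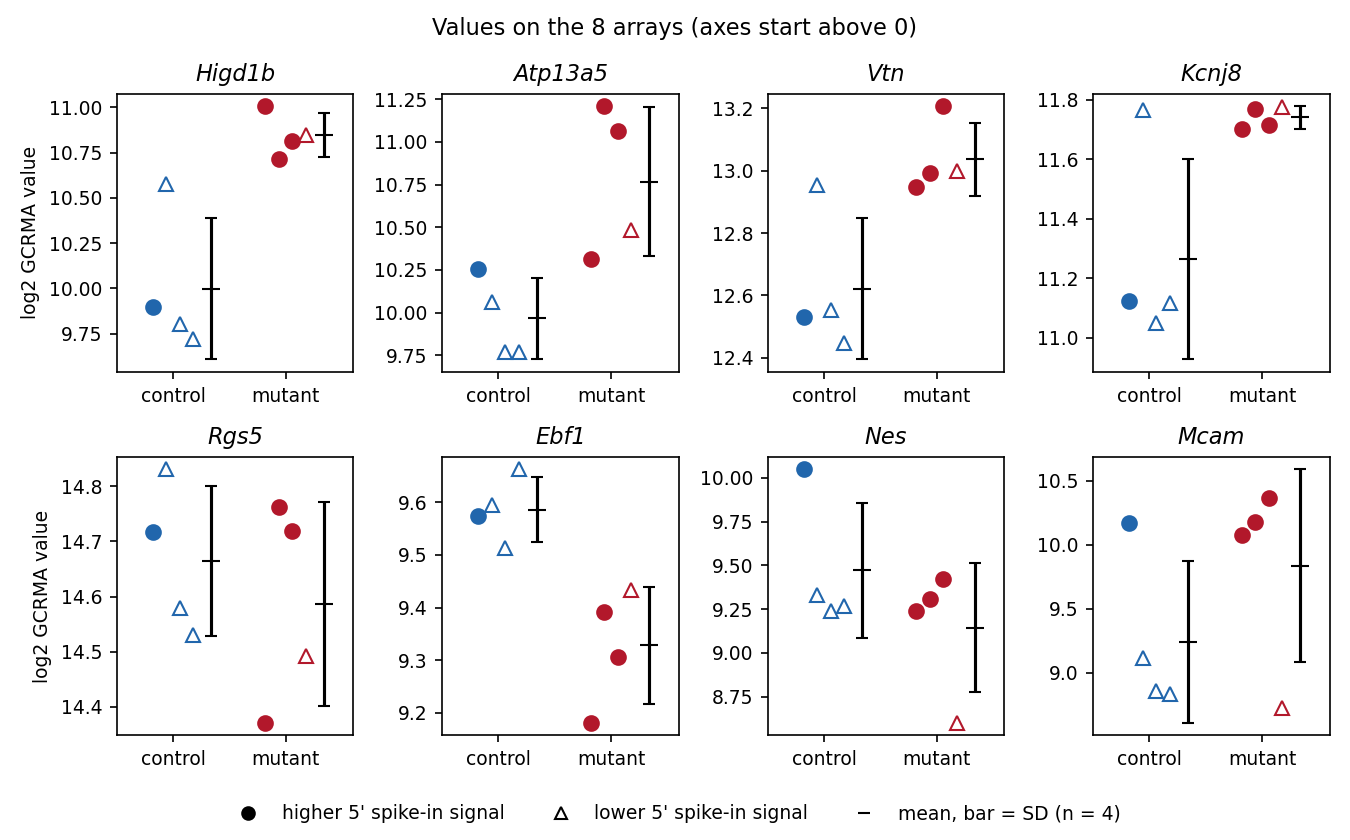
log2 GCRMA values of 8 pericyte genes on the 4 control (blue) and 4 mutant (red) arrays, in the order of the replicate numbers; filled circles are arrays with the higher 5′ spike-in signal, open triangles those with the lower, and the bar is the mean with its SD. Higd1b, Vtn and Kcnj8 share a high control array 2, while Mcam follows the spike-in signal and Nes is lower in mutants within each symbol.

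Among receptors and their regulators none passed. Rgs5, a GTPase-activating protein that dampens Gq and Gi signalling and the most used pericyte transcript marker, read 14.37, 14.76, 14.72 and 14.49 in mutants and 14.72, 14.83, 14.58 and 14.53 in controls. The groups overlapped throughout, and the difference was -0.08 (SE 0.118, 95% interval -0.35 to 0.19, limma adjusted p = 0.742). Its other 3 probe sets differed by 0.06, 0.31 and 0.28, so the direction was mixed. Rgs4, the gene beside it on chromosome 1 and a protein of the same family, differed by 0.26 (95% interval -0.14 to 0.66). S1pr3, a receptor for sphingosine 1-phosphate, differed by 0.36 on its brightest probe set and by 1.02 on the next (limma adjusted p over all probe sets 0.147). With the block these became 0.55 and 0.59, close to each other, and neither passed (limma adjusted p 0.147 for the first, over genes, and 0.172 for the second, over probe sets). The UDP-glucose receptor gene P2ry14 differed by 0.26, the endothelin B receptor gene Ednrb by 0.11 and the parathyroid hormone receptor gene Pth1r by 0.07, with limma adjusted p from 0.371 to 0.844. None of the 6 tested genes of this group passed, 5 of 6 were positive and the median was 0.18.

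In the nitric oxide pathway, soluble guanylyl cyclase makes cyclic GMP from its alpha and beta subunits, encoded by the neighbouring genes Gucy1a1 and Gucy1b1 on chromosome 3, and phosphodiesterase 5, encoded by Pde5a, removes it. Gucy1a1 and Gucy1b1 differed by 0.29 and 0.28, and neither passed (limma adjusted p = 0.309 and 0.357). With the block their differences were 0.43 and 0.09. A dimmer probe set of Gucy1a1 read 7.08, 7.62, 7.07 and 7.37 in mutants and 6.58, 6.74, 6.31 and 6.73 in controls. There the groups did not overlap, and mutants were 0.69 above controls (limma adjusted p of 0.0637 when each probe set was tested). Pde5a differed by -0.12 on its brightest probe set and by 0.10 and -0.88 on the others. The last of these read 6.04, 6.55, 6.51 and 7.82 in mutants and 6.51, 8.08, 7.91 and 7.93 in controls, again divided like the spike-ins but in the opposite sense to Mcam, and with the block the 3 probe sets came to -0.09, -0.19 and -0.15.

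Cygb, the haem protein cytoglobin, which can consume nitric oxide, read 5.81, 6.32, 5.82 and 5.03 in mutants and 5.003, 4.99, 5.03 and 4.91 in controls. Mutant arrays 1 to 3 were higher than every control, control array 1 included, while mutant array 4 met the controls. The difference was 0.76 (SE 0.236, limma adjusted p = 0.12), with 0.98 among the arrays of higher 5′ signal and 0.06 among those of lower signal. With the block it was 0.52 (limma adjusted p = 0.256), and without mutant array 4 it was 1.00 (limma adjusted p = 0.00748). Cygb was not called when any other single array was left out (limma adjusted p from 0.165 to 0.275).

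Of the transcription factors none passed. Ebf1, which takes part in building the mural lineage, read 9.18, 9.39, 9.31 and 9.43 in mutants and 9.57, 9.59, 9.51 and 9.66 in controls. Every mutant lay below every control, by a difference of -0.26 (SE 0.086, limma adjusted p = 0.143). The other tested probe sets of Ebf1 shared this direction, with -0.33, -0.13 and -0.36, and with the block the 4 differences were -0.22 to -0.49. Zic1, a zinc finger factor of brain pericytes and meninges, read 12.67, 13.41, 13.08 and 13.37 in mutants and 13.09, 12.73, 13.22 and 13.05 in controls, a difference of 0.11 (95% interval -0.31 to 0.53). The T-box factor genes Tbx2 and Tbx18 differed by 0.44 and 0.07 (limma adjusted p = 0.214 and 0.885), and by 0.31 and 0.05 with the block. For Tbx2 mutants ran from 8.20 to 8.59 and controls from 7.51 to 8.35, and for Tbx18 the groups overlapped almost entirely.

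Of the 29 genes, 16 had at least 2 tested probe sets, which gave a view of how far the probe set decides the value. The tested probe sets of a gene had 1 direction in 11 of these 16 genes and mixed directions in Cspg4, Nes, Pde5a, Rgs5 and Zic1. With the spike-in set as a block the direction was shared in 12 of 16, mixed ones being Ano1, Ednrb, Gucy1b1 and Rgs5. The range of differences among probe sets of a gene had a median of 0.36 without the block and 0.15 with it, and was narrower with the block in 12 of the 16. Pde5a went from 0.98 to 0.10 and S1pr3 from 0.66 to 0.04, whereas Gucy1b1 widened from 0.04 to 0.43. The division was first noticed in member probe sets, Pde5a and Atp13a5 among them, so the narrower ranges are not independent of the block. Ranges over all other genes with several probe sets were not computed. No member probe set passed when each of the probe sets on the array was tested singly, and 2, both of Nes, passed with the block.

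**Figure D4:**
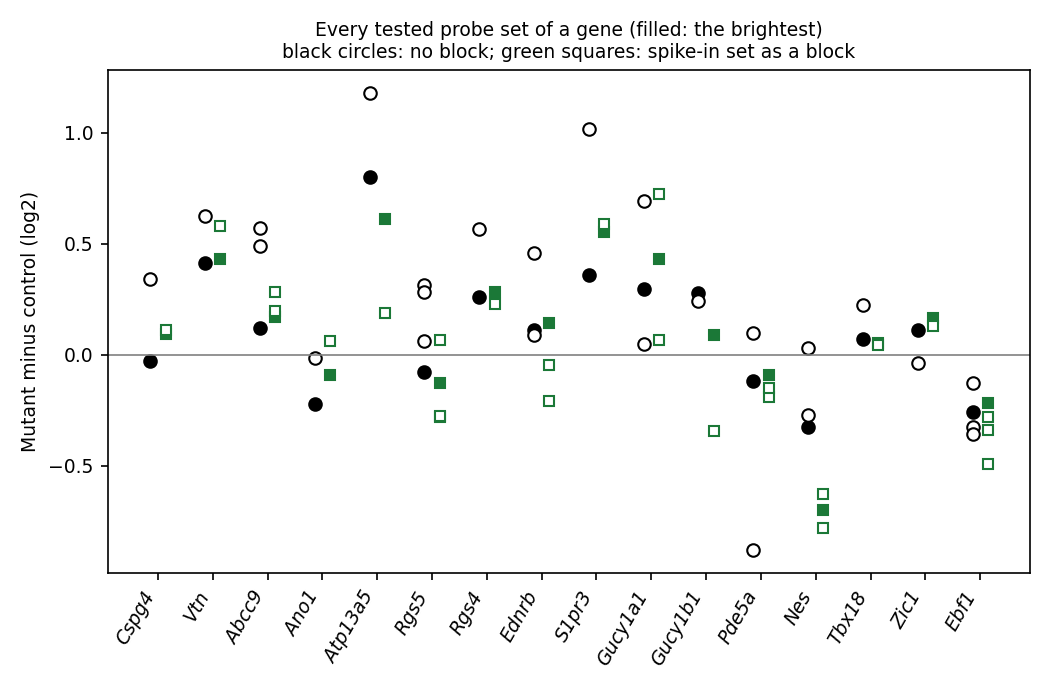
Mutant minus control differences (log2) of every tested probe set of the 16 pericyte genes with at least 2; black circles are the fit without a block, green squares the fit with the spike-in set as a block, and filled symbols the brightest probe set of a gene. The green squares of Pde5a, S1pr3 and Cspg4 lie close together where the black circles are far apart.

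Read within the 2 spike-in sets, 21 of the 29 genes had the same direction in both, 16 of them higher and 5 lower in mutants. The smaller difference of such a gene could be slight, as for Cspg4 and Gja4. With the block 20 of 29 had a positive difference and the median was 0.14, where all tested genes had -0.11. The block turned the sign of 4 genes, Mcam, Enpep, Des and Cspg4, none of which had passed.

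**Figure D5:**
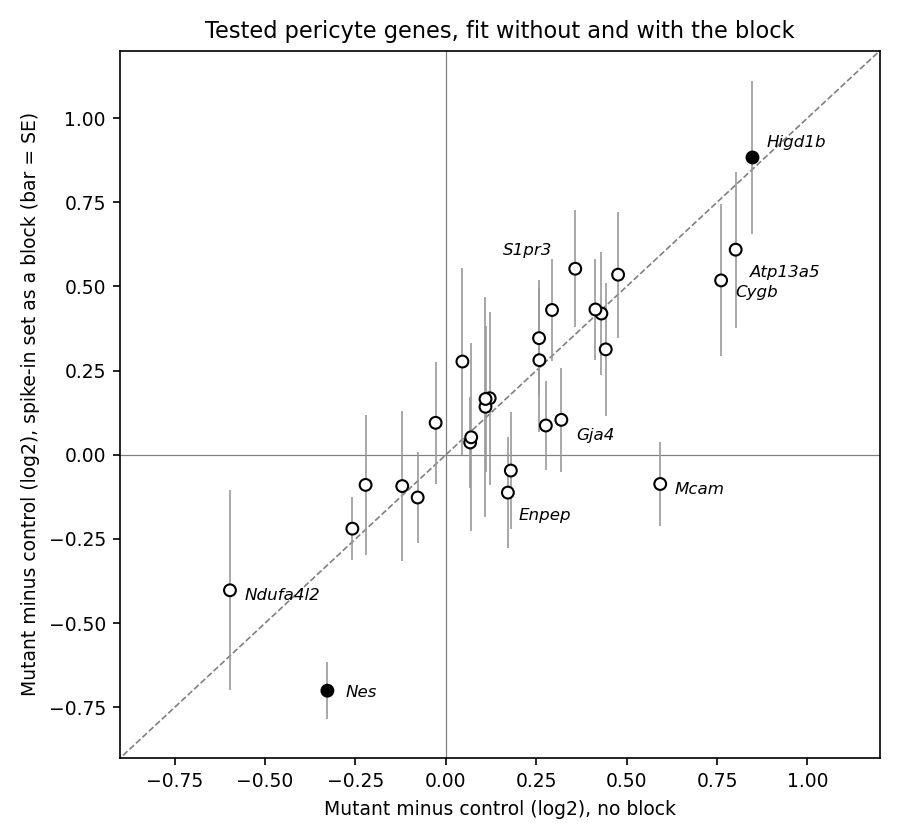
Mutant minus control difference (log2) of the 29 tested pericyte genes in the fit without a block (horizontal) and with the spike-in set as a block (vertical, bars are SE); filled points passed in one of the fits and the dashed line marks equal values. Most genes lie near the line, Mcam drops from 0.59 to -0.09 and Nes from -0.33 to -0.70.

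Other genes of mural cells, kept as a separate list, went in both directions. Of 26 tested, 3 were higher and 1 lower, against 2.66% and 1.92% of all tested genes. Positive differences were found in 14 of the 26, against 30.9% of all tested genes. Their median was 0.02, against -0.11 for all tested genes. Ifitm1, an interferon-induced transmembrane protein also made by pericytes, read 12.46, 12.56, 12.49 and 12.42 in mutants and 10.36, 10.94, 10.70 and 10.68 in controls, and rose by 1.81 (SE 0.124, limma adjusted p = 4.65e-05). Art3, an ADP-ribosyltransferase gene, rose by 1.81 (SE 0.194, limma adjusted p = 0.000902) and Rarres2, which encodes the chemoattractant chemerin, by 0.82 (SE 0.158, limma adjusted p = 0.0241). With the block Rarres2 lost its call (0.80, limma adjusted p = 0.0728), and Ifitm1, Art3 and Pdgfrb kept theirs. Pdgfrb, whose product carries the substitution, read 11.56, 12.06, 11.83 and 11.93 in mutants and 12.87, 12.92, 12.80 and 12.82 in controls on its brightest probe set. Its mutants all lay below its controls, and it fell by 1.01 (SE 0.115, limma adjusted p = 0.00132), with -0.99 under the block. The Notch receptor gene Notch3 differed by -0.70 and did not pass (limma adjusted p = 0.125), with -0.42 under the block. Of 11 tested smooth muscle contractile genes none passed and 1 had a positive difference, against 30.9% of all tested genes. The median of the 11 was -0.35. Under the block it was -0.09 with 4 of 11 positive, where the median of all tested genes was -0.11.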

How the data were processed

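Microvessel RNA of 4 mutant and 4 control brains was labelled with biotin and read on 1-colour arrays, per the labels' protocols. The deposited values are log2 expression values of 45101 probe sets that the authors normalized with GCRMA, per the submitters' processing notes; its version is not given in the sources used here, and no scanner intensities were used. GCRMA corrects background from probe sequence, which pulls dim probe sets towards a floor (2.18), and equalises the distributions of the arrays. Probe sets were named from the platform annotation (34958 with 1 symbol, 932 with several and 9211 with none), and those with 1 symbol were used. A gene was tested where its brightest probe set exceeded 4 on at least 4 of 8 arrays (11446 genes), with limma 3.58.1 in R 4.3.3 and Benjamini-Hochberg adjustment at 0.05; the procedure was tested on simulated data. Groups came from the labels, and with 8 arrays their number limits the precision.

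The pericyte genes and all other lists were chosen with earlier results of these data known. By rule, array values are given for members that passed, the 3 brightest that did not, those whose groups did not overlap and the 2 with the largest spread within a group, and for other mural genes that passed and Pdgfrb; Nes, Kcnj8, Cd248, Abcc9 and Ndufa4l2, the further probe sets of members, and Notch3 were chosen after their values were seen. The division of arrays by spike-ins was noticed in probe sets of members (Mcam, Atp13a5 and Pde5a) and then found in the spike-ins, with a boundary at -3 log2 units, so the block is not independent of the members it is applied to. It and the centring on the median of the tested genes were added after the data were seen. Promoter windows were searched with further patterns that are not reported here. The alternatives were other filters, normalizations, probe set rules and variance models, blocks by replicate number and by spike-in set, a covariate of Y-linked genes, and leaving out each array.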

Additional observations from a re-analysis of the deposited data

Results flagged for a closer look

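In 2 of 58 groups of 4 values (29 genes in each genotype) 1 array stood apart by Dixon's criterion, that is 3.45%, where chance gives about 1 in 20. Kcnj8 on control array 2 read 11.77, with the other controls from 11.05 to 11.13. Nes on control array 1 read 10.05, with the other controls from 9.24 to 9.33; this is the only control array with the higher 5′ spike-in signal. The part of either array in these values was not tested.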

How the results depend on the processing

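Of the pericyte genes 1 was called higher and 0 lower, and 524 genes and 4 other mural genes were called in all. The number of pericyte genes called higher was 0 with no filter on low values, with the replicate block, with Y-linked genes as a covariate, with every probe set tested singly and with the spike-in set as a block. It was 2 (Higd1b and Atp13a5) with arrays centred on the median of the tested genes and 13 with array weights. The number called lower was 1 with array weights (Ebf1) and 1 with the spike-in set as a block (Nes). Array weights, which ran from 0.357 to 6.60 and gave mutant array 3 the highest, called 3158 genes and 13 other mural genes; the cause was not tested. The replicate block called 259 genes, and probe sets without a suffix called 1 other mural gene. Leaving out each array in turn gave 0 to 4 pericyte genes higher (4 without control array 2), 303 to 608 genes in all and 3 to 5 other mural genes. Higd1b was called in 9 of 21 alternatives and not in 12, with a difference of 0.76 to 1.04 and a limma adjusted p of 0.00135 to 0.13. For the other tested pericyte genes 19 comparisons with an alternative gained a call and the rest left the gene uncalled. Over all alternatives the sign changed 27 times in 11 genes, none past the threshold; the farthest such move was that of Mcam, from 0.59 to -0.09 with the spike-in set as a block. Deviations of same-numbered arrays from their group means correlated at -0.08, -0.48, -0.20 and 0.30. No mutant array correlated best with the control array of its own number. These deviations also carry the spike-in division, so they cannot decide whether replicate numbers pair the arrays. Values near the floor, as for Cox4i2, resolve no difference.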
